A study of Mus musculus with 4 samples.

Results

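Intronic long non-coding RNAs (lncRNAs) are transcripts that lie within the intron of another gene, on its own strand (intron sense) or on the opposite strand (intronic antisense). They were followed during the formation of osteoclasts, the bone-resorbing cells, from RAW264.7 cells. The members are the probes that the study's lists of at least 2-fold changed lncRNAs give as intronic antisense or intron sense-overlapping and as nothing else, with a signal well above background on at least 1 array. Of 372 candidates, 2 with a symbol of the form of a numbered pseudogene were left out, and 0 were lost to the limit on background. This gave 370 members, 303 antisense and 67 sense, among 3937 listed lncRNA probes and 60804 probes of the deposited table. Another 2 probes carried both intronic labels and were not used. The lists were available in part, with the up lists of 24 h and 72 h nearly whole and the down lists mostly missing, so 340 members came from an up list and 30 from the down lists alone. The members were thus chosen by the fold changes of each later time against 0 h, and their values in these contrasts are a description.

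RAW264.7 is a macrophage-like cell line of the mouse that turns into osteoclasts when given RANKL, the ligand of the receptor RANK, and 1 line stands here for the precursors of an animal. All groups were RAW264.7 cells given RANKL at 100 ng/mL with M-CSF, the macrophage growth factor, at 50 ng/mL, for 0 h (labelled monocyte), 24 h (pre-osteoclast), 72 h (mature osteoclast) or 96 h (activated osteoclast). Total RNA of each time point was read on 1 array with 1 colour, so no p-value, standard error or interval of a change was computed. Slide 1 held 0 h and 72 h and slide 2 held 24 h and 96 h, with a median local background of 33.0 and 26.0, and slide and time cannot be told apart except in the comparisons of 72 h with 0 h and of 96 h with 24 h. No file used here names the probes of mRNAs, so macrophage and osteoclast markers and the host genes' own mRNAs were not read. In a dish of mixed cells, fewer cells of a type and less RNA per cell cannot be told apart.

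Introns are removed from the transcript of a gene during splicing, yet they also hold promoters of their own. An antisense RNA made there can act on the gene it crosses, and the imprinted transcript Airn, which silences the paternal copy of Igf2r and its neighbours, is the classical mouse example. A sense probe in an intron also matches the unspliced RNA of its host, so that an independent sense lncRNA and host pre-mRNA cannot be told apart on an array.

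The probes of 5 members that were highest at 72 h and lowest at 96 h are printed first, because they differed much between the last stages. Capitals mark AATAAA, the commonest polyadenylation signal. Each probe has 60 bases and is given 5′ to 3′. Sequences are those of the supplementary lists, and coordinates are those of the listed transcripts on GRCm38. AK040682 lies at chr16:92698178-92700539 on the plus strand, antisense within Runx1, a transcription factor of blood cells. Gm16026 lies at chr1:85266698-85277814 on the plus strand, antisense within C130026I21Rik. AK158625 lies at chr19:53323614-53325743 on the minus strand, antisense within Mxi1, a partner of Max that opposes Myc. AK087292 lies at chr13:109745261-109747849 on the plus strand, sense within Pde4d, a cyclic AMP phosphodiesterase. AK043267 lies at chr13:83524856-83527339 on the plus strand, sense within Mef2c, a transcription factor of muscle and myeloid cells.
AK040682: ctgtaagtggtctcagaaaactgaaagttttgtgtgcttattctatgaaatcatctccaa
Gm16026: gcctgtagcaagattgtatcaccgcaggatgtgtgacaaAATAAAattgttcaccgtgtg
AK158625: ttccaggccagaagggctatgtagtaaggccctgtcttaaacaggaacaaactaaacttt
AK087292: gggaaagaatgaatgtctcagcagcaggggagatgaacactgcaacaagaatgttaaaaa
AK043267: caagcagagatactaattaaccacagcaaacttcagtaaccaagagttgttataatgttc

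The probes of 4 bright members that were lower at 24 h and 96 h are printed next, because RefSeq lists these transcripts as pseudogenes. Gm12607 lies at chr4:89161699-89162191 on the minus strand in Mtap, Gm15715 at chr5:21748231-21748513 on the minus strand in Pmpcb and Gm11759 at chr2:145510194-145510657 on the minus strand in Slc24a3, all antisense. Gm12583 lies at chr3:37108174-37109026 on the plus strand, sense within Adad1.
Gm12607: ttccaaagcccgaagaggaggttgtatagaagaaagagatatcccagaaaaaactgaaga
Gm15715: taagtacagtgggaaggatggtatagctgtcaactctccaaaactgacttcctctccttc
Gm11759: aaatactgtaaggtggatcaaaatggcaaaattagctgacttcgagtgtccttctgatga
Gm12583: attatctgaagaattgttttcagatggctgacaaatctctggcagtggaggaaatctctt

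Then follow 4 members with shapes of their own. Airn lies at chr17:12741311-12815557 on the plus strand and crosses Igf2r, XLOC_012490 at chr2:174321468-174327408 on the minus strand within Gnas, Gm12239 at chr11:55772088-56070848 on the plus strand and Sox2ot at chr3:34637169-34677993 on the plus strand.
Airn: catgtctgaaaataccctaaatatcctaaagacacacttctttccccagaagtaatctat
XLOC_012490: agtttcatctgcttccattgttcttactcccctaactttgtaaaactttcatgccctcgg
Gm12239: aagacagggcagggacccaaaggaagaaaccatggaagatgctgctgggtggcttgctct
Sox2ot: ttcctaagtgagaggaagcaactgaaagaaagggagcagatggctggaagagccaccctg

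Last come both strands of 3 ultraconserved elements, stretches of the genome kept without change between mammals, because they allow a comparison of strands at 1 place. Element uc.219 lies at chr5:131693978-131694187 in Auts2, uc.22 at chr4:109882845-109883152 in Faf1 and uc.28 at chr3:158023942-158024296 in Srsf11. The longest stretch that the probe of one strand shares with the complement of the other has 4 bases for uc.219, 6 for uc.22 and 5 for uc.28, so the probes of a pair do not match each other.
uc.219+: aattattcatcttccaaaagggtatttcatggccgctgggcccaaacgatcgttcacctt
uc.219-: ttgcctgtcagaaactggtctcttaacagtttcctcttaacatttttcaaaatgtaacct
uc.22+: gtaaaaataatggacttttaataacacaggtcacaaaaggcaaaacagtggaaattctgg
uc.22-: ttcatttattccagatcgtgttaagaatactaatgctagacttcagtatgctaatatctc
uc.28+: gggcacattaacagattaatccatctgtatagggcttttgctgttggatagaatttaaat
uc.28-: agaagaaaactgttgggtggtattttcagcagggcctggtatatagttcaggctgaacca

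Set against RefSeq genes of the same build, the labels held for most members. Of the 370, 309 lay inside a coding gene, 58 overlapped one in part or spanned it, and 3 met none, namely AK137448, C920009B18Rik and Tcrd. Where RefSeq promoters gave the strand of the host, 293 of 296 members lay on the strand that their class names. The other 3 were antisense members (Gm15507, Gm20033 and 1300015D01Rik), and for 71 members the strand of the host was not given. In 11 cases the listed interval held a whole coding gene. Among these was Sox2ot, whose interval holds Sox2, a gene without introns, so the label of an intron sense transcript does not describe its place there. The members lay in 339 different hosts, 22 of which held more than 1 member, and Auts2, Faf1 and Pola1 held 4 each. Hosts with members on both strands were these 3 genes, Mast4, Ncald and Srsf11.

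Antisense members were longer than sense members, with a median transcript length of 815 nt against 394 nt. Lengths ran from 61 to 5578 nt in all, and 11 members were shorter than 200 nt, the usual lower limit of a lncRNA. The median GC content of the probes was 41.7% for antisense and 38.3% for sense members. AATAAA, searched on the printed strand alone, stood in 43 antisense probes (14.2%) and 6 sense probes (8.96%), against 10.4% of all listed lncRNA probes. GenBank cDNAs (90 members) and the transcripts of an earlier publication (18 members) were antisense throughout, while 21 of 38 ultraconserved members were antisense. Of the 370 symbols, 103 matched a RefSeq name or synonym, of which 63 were lncRNAs, 32 pseudogenes and 6 coding genes.

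Antisense members were seen on few arrays and sense members on more. Well above background were 122 of 303 antisense members (40.3%) before induction (0 h), 188 (62.0%) on the 24 h array, 172 (56.8%) on the 72 h array and 231 (76.2%) on the last. Of the 67 sense members these were 38 (56.7%), 40 (59.7%), 47 (70.1%) and 57 (85.1%). Over all probes of the table the shares were 62.3%, 58.8%, 59.8% and 66.8%, so that the antisense class was below the table at 0 h and above it at 96 h. The other listed classes did likewise, with 56.7% and 85.1% for sense, 43.2% and 80.9% for intergenic, 55.2% and 82.6% for natural antisense, 57.7% and 86.0% for exon sense-overlapping and 60.6% and 82.9% for bidirectional probes at 0 h and 96 h. On all 4 arrays 101 antisense members (33.3%) and 31 sense members (46.3%) were detected, and on 1 array alone 123 (40.6%) and 22 (32.8%). Over all probes of the table, never detected ones included, these shares were 53.7% and 7.13%. Among other listed classes taken in the same way, 34.3% of intergenic, 45.7% of natural antisense, 49.2% of exon sense-overlapping and 56.9% of bidirectional probes were detected on all 4 arrays. On 1 array alone these classes had 39.6%, 28.6%, 25.8% and 25.5%. The choice of probes from lists of changed lncRNAs enters all of these shares.

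**Figure D1:**
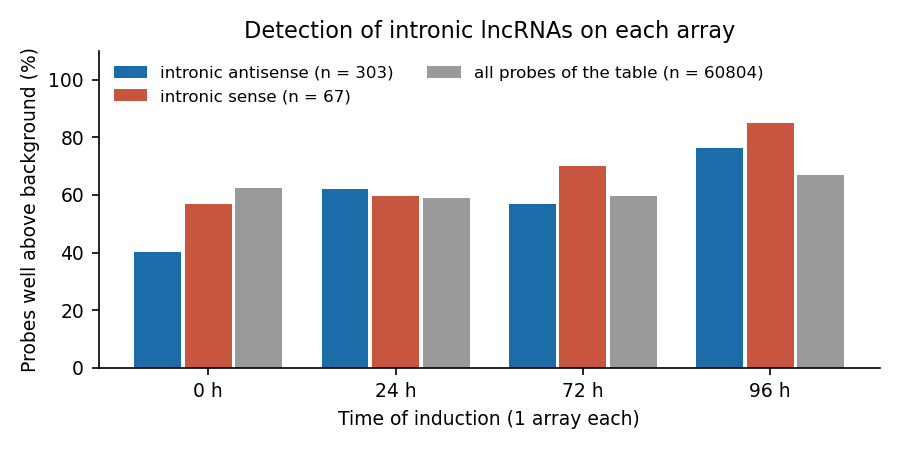
Share of intronic antisense members, intronic sense members and all probes of the table that were well above background (y axis, percent) on the array of each time point (x axis). Antisense members went from 40.3% at 0 h to 76.2% at 96 h, while all probes stayed between 58.8% and 66.8%.

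Members seen on 1 array alone were spread over the later stages, with 0 at 0 h in either class. As 340 of the 370 members came from lists of probes higher than 0 h, this 0 follows largely from the choice. Of the antisense members, 35 were detected at 24 h alone, 32 at 72 h alone and 56 at 96 h alone, and of the sense members 3, 6 and 13. Their median log2 signal for antisense members was 6.15, 5.65 and 5.10 in this order, and the lowest detected signals of the arrays were 5.17, 5.15 and 4.41, so these medians of different probes have no order to read. Among pairs of arrays, 32 antisense members were detected at 24 h and 96 h alone, 15 at 72 h and 96 h alone and 1 at 24 h and 72 h alone. The 24 h and 96 h arrays share slide 2, and the part of the slide in this count was not tested.

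The brightest of these were single signals in hosts of very different kinds. Gm15689, antisense within Unc5c, a netrin receptor of growing axons, had log2 signals of 2.66, 7.88, 2.67 and 2.68 at 0, 24, 72 and 96 h. It was thus detected at 24 h alone, at least 8.41-fold above the lowest signal that counted as detected at 0 h. Ultraconserved uc.63+ in Xpo1, the main nuclear export receptor, had 3.34, 7.82, 2.76 at 0, 24 and 96 h and 2.67 at 72 h, and uc.179+ in Ranbp17, another nuclear transport receptor, had 7.62 at 24 h and at most 2.96 elsewhere. At 72 h alone AK157044, antisense within Hs3st5, an enzyme of heparan sulfate synthesis, reached 7.31 with 2.78, 2.64 and 2.64 at 0, 24 and 96 h, at least 5.67-fold above 0 h. AK082693, whose interval overlaps Rex2, had 3.67, 4.83, 7.10 and 4.21. At 96 h alone Sox2ot reached 7.40, with 2.83, 3.12 and 2.67 at 0, 24 and 72 h, at least 6.05-fold above 0 h. AK054106, whose interval crosses the cation channel gene Trpc6, had 2.87, 2.65, 2.67 and 6.69, and Gm15702 in Adgrb3, an adhesion receptor, had 4.78, 3.14, 5.07 and 6.60. The brightest sense member at 72 h alone was uc.388+ in the transcription factor gene Tcf12, with 5.76 there and at most 3.09 elsewhere, which is under 2-fold against the limit at 0 h. Values that are not above background have no order, and 62 members sat at the lowest value of the table at 72 h.

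Each comparison took the members detected on at least 1 of its 2 arrays, with an undetected side raised to the lowest detected signal, so such a fold is a lower bound. At 24 h against 0 h, 81 of 246 members were higher by 2-fold or more and 24 were lower by as much, against 3.40% and 6.14% of all probes that entered. Antisense members made up 74 of the higher and 15 of the lower, while 7 sense members were higher and 9 lower. The median log2 difference was 0.73 for antisense and 0.30 for sense members, with 0.10 for all probes. The shares of higher and of lower members, and the difference between the strands, follow from the lists and are no result. At 24 h the up list gave 126 antisense and 17 sense members, and the down list 22 and 12.

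At 72 h against 0 h, within slide 1, 86 of 228 members were higher and 6 lower, with 4.35% and 5.31% of all probes. Of 180 antisense members 67 (37.2%) were higher and of 48 sense members 19 (39.6%), with medians of 0.67 and 0.49 against 0.05 for all probes. At 96 h against 0 h, 82 of 293 members were higher and 27 lower, beside 5.72% and 8.42% of all probes. Of the sense members 14 were higher and 9 lower, of the antisense members 68 and 18, and the medians were 0.12 and 0.44. As at 24 h, these shares and the likeness or difference of the strands follow from the lists and are no result. The 72 h up list gave 112 antisense and 30 sense members and the down list 1 and 1. The 96 h up list gave 123 and 23. The 3 comparisons share the 0 h array and so are not independent.

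Comparisons of later times leave out the 0 h array, but the choice of members, mostly from the up lists of these times, enters them too. At 96 h against 24 h, within slide 2, 38 of 329 members were higher and 75 lower, with 5.33% and 6.51% of all probes, but scaling to the 75th percentile gave 43 and 55. The lowest detected signal was 5.17 at 24 h and 4.41 at 96 h, so a raised side allows a lower call more easily than a higher one. Without raised values 76 members were higher and 77 lower, and among the 132 members detected on all 4 arrays 22 were higher and 22 lower, so the excess of lower members did not hold there. Among antisense members 29 were higher and 67 lower, and among sense members 9 and 8. At 72 h against 24 h, 60 of 300 members were higher and 65 lower (8.32% and 8.20% of all probes), and 49 and 80 with the other scaling. Members detected on both of these arrays gave 41 higher and 29 lower, and those on all 4 arrays 40 and 27, so this balance turned with the rule on detection. At 96 h against 72 h, 56 of 332 members were higher and 97 lower (10.9% and 12.9% of all probes), and with the other scaling 87 and 67, and without raised values 121 and 106, so the direction of this balance depends on the processing. Among members on all 4 arrays 32 were higher and 54 lower. The sense members gave 7 higher and 20 lower in this comparison and the antisense members 49 and 77.

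**Figure D2:**
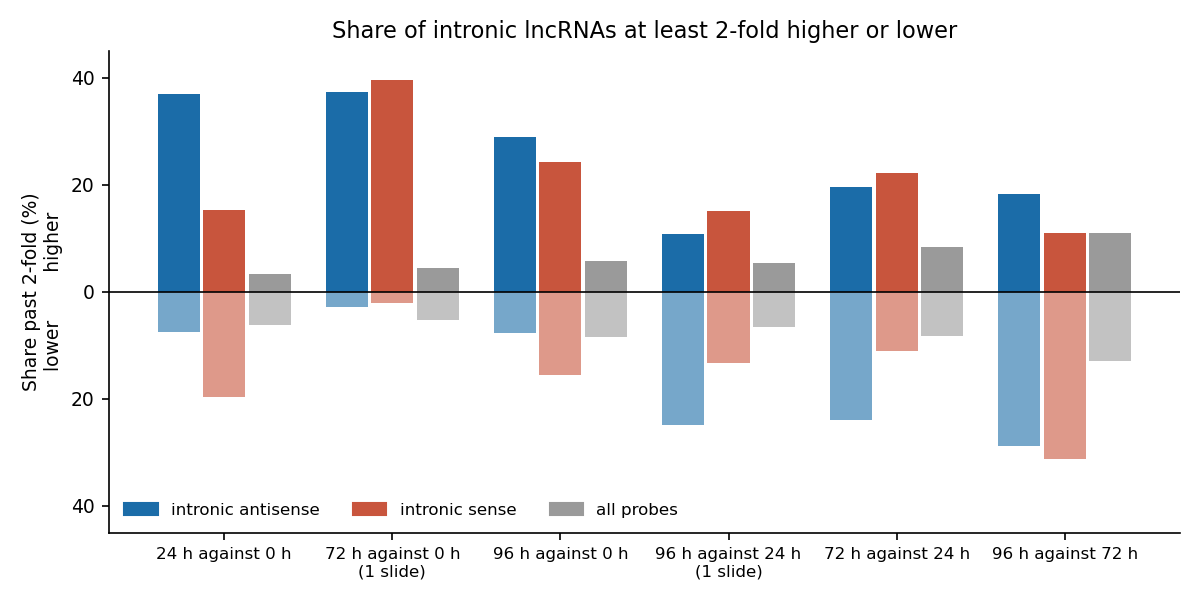
Share of intronic antisense members, intronic sense members and all probes (y axis, percent of those that entered) at least 2-fold higher, drawn upward, or lower, drawn downward in a lighter tone, in each of 6 comparisons of 2 arrays. At 24 h against 0 h, 37.0% of antisense and 15.2% of sense members were higher and 7.50% and 19.6% lower. These shares follow from the lists that gave the members. Comparisons within 1 slide are named as such.

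The 132 members detected on all 4 arrays need no limit for undetected signals. Among their 101 antisense members, the 24 h array had 23 at least 2-fold above 0 h and 12 below, the 72 h array 43 and 5, and the 96 h array 39 and 15. Among the 31 sense members the counts were 3 and 7, 15 and 0, and 7 and 7. Of all 32668 probes detected on 4 arrays, 2.01% lay above and 5.74% below on the first of these arrays, 3.61% and 4.69% on the second, and 4.76% and 8.08% on the last. The highest of the 4 signals fell on the 72 h array for 44 of these antisense and 17 of these sense members. Over all probes of the table, detected or not, 34.1% were highest there, and of all antisense and all sense members 35.0% and 46.3%. Among other listed classes it was 31.6% of intergenic, 34.9% of exon sense-overlapping, 46.4% of natural antisense and 59.3% of bidirectional probes. The choice of members from the lists enters all of these counts.

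Several members with wide ranges were highest at 72 h and lowest at 96 h. AK040682 in Runx1 had log2 signals of 6.38, 7.27, 8.33 and 4.60 at 0, 24, 72 and 96 h, which is 3.85-fold above 0 h at 72 h and 13.2-fold lower at 96 h than at 72 h. AK158625 in Mxi1 had 7.68, 7.90, 9.50 and 6.38, an 8.67-fold difference between the last stages. Gm16026 in C130026I21Rik, a gene next to the Sp100 family, had 6.27, 7.0, 9.16 and 5.77 and stood 7.44-fold above 0 h at 72 h. All 3 are antisense and were detected on every array, AK040682 at 96 h close to the lowest detected signal there (4.41). With normexp, a correction that models the local background, the differences shrank. At 96 h against 72 h AK040682 had a log2 difference of -2.03 in place of -3.73, and AK158625 -2.30 in place of -3.12. Gm16026 at 72 h against 0 h had 2.08 in place of 2.89.

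A few sense members had the same order of stages. Of the 31 sense members on all 4 arrays 17 were highest at 72 h, beside 34.1% of all probes of the table, detected or not. Lowest at 96 h were 12 of them, but 11 were lowest at 0 h, and no share of all probes was computed for this. The choice of members from the lists enters these counts. AK087292 in Pde4d had 7.67, 7.98, 8.88 and 5.98, 7.50-fold lower at 96 h than at 72 h. AK043267 in Mef2c had 9.86, 10.40, 10.86 and 8.75, only just 2-fold above 0 h at 72 h and 4.31-fold lower at 96 h than at 72 h. C920009B18Rik, which met no coding gene, had 6.54, 7.44, 8.33 and 5.92, the same shape with a 5.32-fold difference between the last stages. Gm4117, whose interval crosses the gene of the matrix proteoglycan versican (Vcan), is antisense and was named after its values were seen, with 9.54, 10.19, 10.77 and 8.01. For all of these the 24 h signal lay between those of 0 h and 72 h. With normexp the members in Pde4d and Mef2c were under 2-fold at 72 h against 0 h (log2 differences of 0.93 and 0.88). So were those in Runx1 and Mxi1 at 96 h against 0 h (-0.70 and -0.77). At 96 h against 72 h, AK087292 had -1.99 with normexp in place of -2.91. AK043267 had -1.91 in place of -2.11 and C920009B18Rik -1.50 in place of -2.41.

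**Figure D3:**
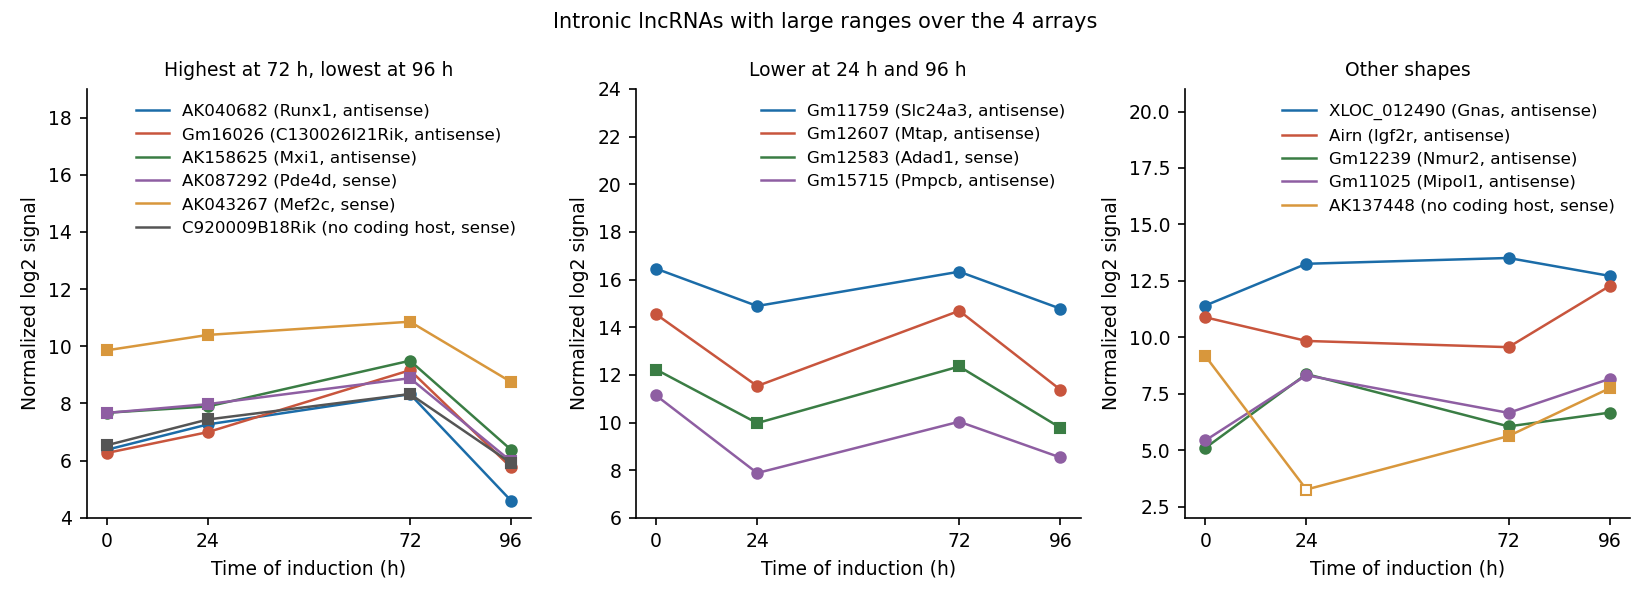
Normalized log2 signal (y axis) of 15 intronic members over the time of induction in hours (x axis), with circles for antisense and squares for sense members and open symbols where a signal was not well above background. The left panel holds members highest at 72 h and lowest at 96 h, the middle panel bright members with signals of 14.54 and 11.53 (Gm12607) and the like at 0 h and 24 h, and the right panel members of other shapes.

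Among the brightest members, many are pseudogenes in RefSeq, and 14 of the 31 members lower than 0 h at 24 h or 96 h belonged to them. This group was formed after the values were seen and gets no test. The down lists, as available, gave 34 members at 24 h and 2 at 72 h. All 13 pseudogenes lower at 24 h came from the 24 h down list, so these calls follow from the lists and are no result. The 32 pseudogenes, 28 antisense and 4 sense, had a median of the mean log2 signal of 7.04 against 4.97 for the other 338 members, and 11 of the 23 members with a mean of at least 10 were pseudogenes. At 24 h against 0 h, 13 of 28 pseudogenes were lower and 6 higher, against 11 and 75 of 218 other members. At 96 h against 0 h, 13 of 30 were lower and 2 higher, against 14 and 80 of 263. At 72 h against 0 h, within slide 1, 1 of 22 was lower and 6 higher, against 5 and 80 of 206. Within slide 2, at 96 h against 24 h, 5 of 31 were lower and 2 higher, against 70 and 36 of 298 other members. Of all probes, 6.14%, 5.31% and 8.42% were lower at 24 h, 72 h and 96 h against 0 h, and 3.40%, 4.35% and 5.72% higher. At 96 h against 24 h these shares were 6.51% and 5.33%. The lower calls went with the 24 h and 96 h arrays, both on slide 2. The down lists available, mostly that of 24 h, shape this contrast too, and the part of the slide was not tested.

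Gm12607 in Mtap, an enzyme of methionine salvage, had 14.54, 11.53, 14.69 and 11.38, 8.05-fold lower at 24 h and 8.95-fold lower at 96 h than at 0 h. Gm15715 in Pmpcb, a subunit of the mitochondrial processing peptidase, had 11.14, 7.88, 10.04 and 8.53 and was lower at all 3 later times, 9.55-fold at 24 h. Gm12583 in Adad1, a gene of the testis, had 12.22, 9.98, 12.35 and 9.78. These 3 fell into a high pair of arrays, 0 h and 72 h, and a low pair, 24 h and 96 h.

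The brightest member of all, Gm11759 in the sodium and calcium exchanger gene Slc24a3, had 16.46, 14.89, 16.33 and 14.78. Gm13156 in Mfn2, a protein of mitochondrial fusion, has no RefSeq name and had 16.12, 14.90, 16.08 and 14.63. Gm6211 in Mast4 had 13.76, 12.69, 13.68 and 11.96, and Gm16219 in Gm5134 had 14.80, 13.34, 14.27 and 13.32, both sense. Every one of these was higher on both arrays of slide 1 than on both of slide 2. Other bright pseudogenes did not share the shape, as Gm6024 had 12.75, 12.67, 14.63 and 12.79 and Gm15470 14.24, 14.27, 15.35 and 12.72. The entries for cross-hybridising transcripts are empty for all 32 pseudogenes, and a match of these probes to the mRNA of a parent gene was not tested.

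**Figure D4:**
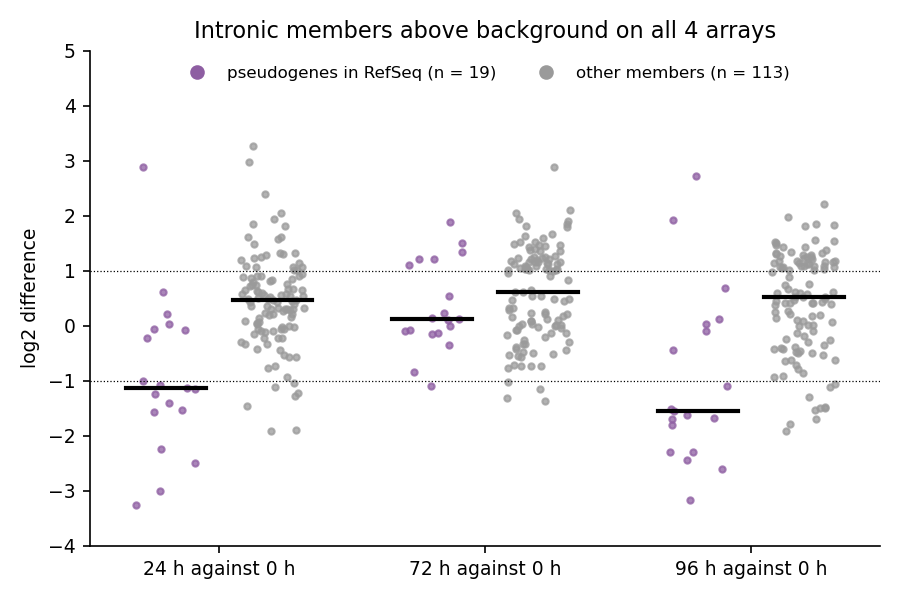
Difference in log2 signal against 0 h (y axis) at 24 h, 72 h and 96 h for the 19 pseudogenes and the 113 other members detected on all 4 arrays, 1 point per member with the median as a bar and dotted lines at 2-fold. The pseudogene medians were -1.13 at 24 h, 0.13 at 72 h and -1.54 at 96 h, against 0.48, 0.62 and 0.51 for the other members. The lists that gave the members enter these medians.

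A few members with well-known names or hosts followed other courses. Airn, named after its values were seen, had 10.88, 9.84, 9.56 and 12.27, 2.07-fold lower at 24 h and 2.50-fold lower at 72 h than at 0 h but 2.61-fold higher at 96 h. It was thus 6.53-fold higher at 96 h than at 72 h. With normexp its log2 difference at 24 h was -0.92, under 2-fold. Its probe is 1 of 6 among the members with an entry for a cross-hybridising transcript. AK148560, antisense within Shcbp1l and also named after its values were seen, had 9.75, 9.41, 8.38 and 10.90. Both were lowest at 72 h and highest at 96 h, opposite to the members in Runx1 and Mxi1.

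XLOC_012490 lies antisense within Gnas, the imprinted gene of the stimulatory G protein subunit, and had 11.41, 13.26, 13.51 and 12.72, or 3.60-fold, 4.31-fold and 2.48-fold above 0 h. Gm15987 within the lectin gene Clec2g had 7.18, 8.41, 8.42 and 8.43. Gm11025 in Mipol1, a pseudogene, had 5.43, 8.32, 6.65 and 8.16, and the sense member Gm22058 in Atl1 had 4.52, which was not above background, then 6.33, 6.20 and 6.57. These were chosen as members above 0 h at every later time. With normexp Gm22058 was under 2-fold at every later time (log2 differences of 0.57, 0.62 and 0.66) and Gm11025 at 72 h (0.65). Gm12239, whose interval holds the neuromedin receptor gene Nmur2, had 5.10, 8.37, 6.05 and 6.66, 9.66-fold above 0 h at 24 h, the widest range upward at that time among members on all 4 arrays. AK137448 had 9.17, 3.26, 5.62 and 7.74, and since its signal was not above background at 24 h it was at least 16.0-fold lower there.

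The ultraconserved members were dim, with 8 of 38 detected on all 4 arrays and 21 on 1 array alone. In Auts2, a regulator of transcription in neurons, the strands of uc.219 were detected at different times. The sense strand uc.219+ had 2.67, 2.61, 6.81 and 5.07 at 0, 24, 72 and 96 h and the antisense strand uc.219- had 2.65, 7.04, 2.67 and 2.85, so 24 h was the only array where the antisense strand was above background and no array showed both. In Faf1, which binds the death receptor Fas, uc.22+ had 3.41, 3.90, 3.30 and 6.44 and uc.22- had 2.67, 5.11, 2.67 and 5.92, both detected at 96 h alone. In Srsf11, a splicing factor, the sense strand uc.28+ was detected throughout with 5.44, 5.22, 5.91 and 6.62, while uc.28- had 3.61, 6.19, 2.67 and 2.79 and was detected at 24 h alone. In detection the strands of an element were therefore alike for 1 of the 3, uc.22. This rests on the limit, as uc.22- at 24 h (5.11) was just under the lowest detected signal of 5.17, and uc.22+ had 3.90. With normexp uc.22+ and uc.22- were under 2-fold at 96 h against 0 h (log2 differences of 0.97 and 0.70).

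**Figure D5:**
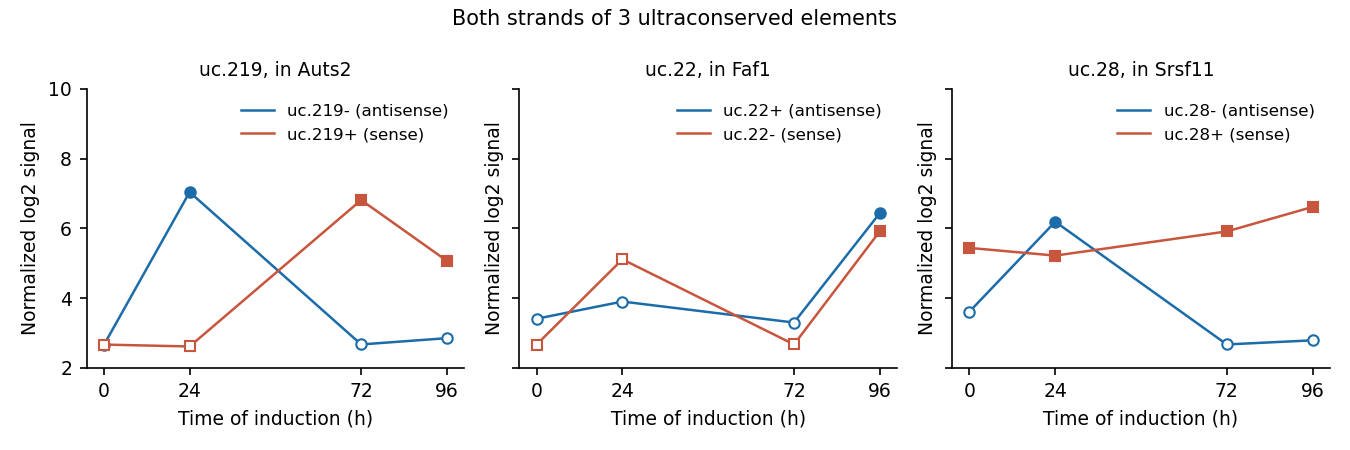
Normalized log2 signal (y axis) of the antisense strand (circles) and the sense strand (squares) of 3 ultraconserved elements over the time of induction in hours (x axis), with open symbols where a signal was not well above background. The strands of uc.219 were detected at different times, at 24 h (7.04) and at 72 h (6.81) and 96 h (5.07).

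Of the ultraconserved members seen on all arrays, 3 had the widest ranges. Antisense uc.462- in Pola1, the catalytic subunit of DNA polymerase alpha, had 6.35, 6.79, 5.58 and 7.69. Antisense uc.4+ in Casz1, a zinc finger transcription factor, had 6.12, 7.60, 5.62 and 6.12, and sense uc.377+ in Prpf39, a splicing protein, had 6.06, 6.53, 7.10 and 5.19. Their highest signals thus fell at 96 h, 24 h and 72 h.

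Hosts were read against 5 lists of genes written with earlier results of these data known. The counts of members higher stand beside the shares of all members that were higher than 0 h on the 24 h, 72 h and 96 h arrays (32.9%, 37.7% and 28.0%), which follow from the study's lists, and those of all probes (3.40%, 4.35% and 5.72%). Of 66 osteoclast genes, 1 held a member, Gm16144 within Anxa2, a membrane-binding annexin, which was detected at 24 h alone (3.31, 5.68, 2.67 and 2.97). Of 40 macrophage genes 4 held a member. Beside Runx1 and Mef2c these were Sp110, an interferon-induced nuclear body protein, with Gm16094 at 6.94, 6.89, 8.46 and 6.15, and Ikzf1, the transcription factor Ikaros, with AK155383 at 4.47, 7.16, 3.44 and 5.27. The members in Runx1, Mef2c and Sp110 were highest at 72 h and lowest at 96 h, and AK155383 was highest at 24 h. All 3 that entered at 72 h were higher than at 0 h, with a median log2 difference of 1.52, and at 96 h 2 of 4 were lower, with a median of -0.95, beside 27 of 293 members and 8.42% of all probes. With normexp the member in Mef2c at 72 h and that in Runx1 at 96 h were under 2-fold.

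Among 49 genes of the cytoskeleton and adhesion, 6 held a member, and 4 of the 5 that entered at 72 h were higher than at 0 h (median 1.49), with 0 at 24 h or 96 h. These are few members, set against 86 of 228 members and 4.35% of all probes at 72 h. Arhgap27os3 in Arhgap27 had 8.06, 8.39, 9.55 and 7.42. Sense member Nck2, named like its host, an adaptor of actin signalling, had 5.21, 5.01, 7.25 and 5.39. Gm15628 in the actin bundler Lcp1 was detected at 72 h alone (2.62, 2.61, 6.30 and 4.21), as was Gm2415 in the integrin gene Itga9 (4.10, 3.90, 6.29 and 2.84). With normexp Nck2, Gm15628 and Gm2415 were under 2-fold at 72 h against 0 h (log2 differences of 0.80, 0.95 and 0.65). Arhgap27os3 kept a log2 difference of 1.29.

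The list of long neuronal and synaptic genes had 14 members in 10 of 46 genes, and long genes have more room for intronic probes. Higher than 0 h were 5 of 11 at 24 h, 2 of 8 at 72 h and 5 of 12 at 96 h, and 0 were lower. The members AK013224, antisense in Auts2, and AK140583, sense in the same gene, had 5.59, 6.90, 6.14 and 6.82 and 5.81, 6.95, 5.84 and 7.02. Both were above 0 h at 24 h and 96 h, the arrays of slide 2, unlike the ultraconserved pair in that gene. AK157453 in the adhesion gene Cadm2 had 6.24, 7.16, 6.11 and 7.67, and Mir691 in the Slit receptor gene Robo2, a transcript of 78 nt, had 5.82, 5.37, 6.35 and 7.32. With normexp AK013224 and AK140583 were under 2-fold against 0 h at 24 h (log2 differences of 0.77 and 0.64) and 96 h (0.65 and 0.69). AK157453 and Mir691 were under 2-fold at 96 h as well (0.96 and 0.89).

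Genes listed as regulators of transcription and chromatin held 19 members in 15 of 48 genes. The list also took in Pola1 and Srsf11, which serve replication and splicing. Against 0 h, 4 of 15 were higher at 24 h, 3 of 11 at 72 h and 4 of 13 at 96 h, shares near or under those of all members, and 0 were lower. Gm20705 in Foxp1 had 7.78, 8.32, 9.14 and 8.31 and the sense member in Zfp644 had 7.49, 6.96, 8.50 and 6.57, both highest at 72 h. Gm12676 in Nfia had 6.90, 7.46, 6.17 and 8.03 and AK155988 in the nuclear receptor gene Rora 6.10, 5.76, 6.72 and 7.24, both highest at 96 h. With normexp Gm20705 kept a log2 difference of 1.13 at 72 h against 0 h, but the member in Zfp644 had 0.82. Gm12676 and AK155988 were under 2-fold at 96 h against 0 h (0.83 and 0.68).

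Probes of 1 symbol did not always show the same course. The probes of 4930564K09Rik, which crosses Lrat, had 4.54, 3.17, 6.09 and 3.76 for 1 transcript and 2.64, 6.53, 3.54 and 2.65 for the other, so that they were detected at 72 h alone and at 24 h alone. Both probes of Gm10804 in Cd82 were detected at 96 h alone, at 5.54 and 6.06. Those of 4930511M06Rik had 4.76 and 5.22 at 96 h, where both were detected, and only the second was detected at 24 h (6.26).

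Members near the 2-fold limit of the lists differ little from each other. Just inside it were Gm15001 at 24 h with a log2 difference of 1.01, AK140484 at 72 h (from 4.26 to 5.26) and AK139776 at 96 h (from 3.71 to 4.71), and just under it at the same times AK076564 with 0.99, Gm3267 (which reached 4.10) and AK171153 with 0.99. Of these, the 72 h and 96 h pairs and AK076564 were below the lowest detected signal at 0 h. The repeated spots of 16 probes differed by a median SD of 0.05 to 0.07 on the log2 scale within an array, which says nothing of the spread between cultures.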

How the data were processed

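Per the labels, total RNA of RAW264.7 cells was labelled with Cy3 and hybridised to 4 Arraystar mouse lncRNA arrays, 1 per time point. The authors deposited the spot intensity columns and flags of Agilent Feature Extraction, whose headers give version 11.0.1.1. The deposited log2 table of 60804 probes, which the authors had quantile normalized over the 4 arrays, gave the main values. Classes, transcripts and probe sequences came from the study's supplementary lncRNA lists, read here in part, and their fold columns were not used. Host genes were taken by position from RefSeq genes (GRCm38.p6), with the strand from the RefSeq promoter table, and listed starts were counted from 1. Of 97 members with a RefSeq symbol, 95 overlapped that gene on this build.

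A probe counted as detected where a spot was flagged well above background. A comparison took probes detected on at least 1 of 2 arrays and raised an undetected side to the lowest detected log2 signal of its array (4.81, 5.17, 5.15 and 4.41 at 0, 24, 72 and 96 h). Differences of at least 1 on the log2 scale, 2-fold, were counted. With 1 array per time point no test was run, and signal over background limits what can be seen. Precision is limited by the small number of arrays. Between 58.8% and 66.8% of the probes were detected per array, 0 spots were saturated, and 1 member spot (uc.253 at 72 h) was marked as an outlier. The functions were tested on simulated data.

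Alternatives were processed signals quantile normalized anew, scaling to the 75th percentile, normexp with an offset of 50, detection on both arrays, no raised values, the flag for positive and significant signals, a limit of 1.5-fold, members without a cross-hybridising entry and 1 probe per symbol. The same alternatives for the pseudogene counts and for 72 h against 24 h and 96 h against 72 h were chosen after seeing the data. Named members were those with the largest range or highest mean on all 4 arrays, the brightest on 1 array alone, ultraconserved pairs, members in listed hosts, repeated symbols, hosts with both strands, members at the limit, and those changed at all later times. Values of 1 named member are not reported here. The members and lists were chosen with earlier results of these data known. Python 3.11.15 with numpy 2.4.6, pandas 2.3.3 and matplotlib 3.10.9 and limma 3.58.1 in R 4.3.3 were used.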

Additional observations from a re-analysis of the deposited data

Results flagged for a closer look

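Several members were at least 2-fold above 0 h at 1 later time and at least 2-fold below it at another. The difference was not tested, since each time had 1 array, and the contrasts share the 0 h array. Higher at 24 h and lower at 72 h was 1 member, 1700109K24Rik within Rbfox2, an RNA-binding splicing regulator (6.42, 7.73, 5.27 and 6.89 at 0, 24, 72 and 96 h). Higher at 96 h and lower at 24 h was 1 member, Airn, and higher at 96 h and lower at 72 h were 2 members, Airn and AK148560. Higher at 72 h and lower at 96 h were 6 members, AK043267, Gm4117, AK087292, AK040682, AK158625 and Gm15470. With normexp, 1700109K24Rik was under 2-fold at both times (log2 differences of 0.94 and -0.45), Airn at 24 h (-0.92), AK087292 and AK043267 at 72 h (0.93 and 0.88) and AK040682 and AK158625 at 96 h (-0.70 and -0.77). With scaling to the 75th percentile AK148560 was under 2-fold at 96 h (0.98). Gm4117, Gm15470 and the opposite directions of Airn at 72 h and 96 h kept to 2-fold or more under both. All of these members were detected on all 4 arrays, and the values of the others stand in the report. The slide differs within each of these pairs of arrays except 24 h and 96 h, and its part was not tested.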

How the results depend on the processing

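Of 72 counts recomputed for the later times against 0 h and for 96 h against 24 h, 52 stayed within 1.5 times the reported count and 20 did not. With normexp, members at least 2-fold higher were 33 at 24 h, 36 at 72 h and 25 at 96 h against 0 h, and at 96 h against 24 h 19 were higher and 32 lower. The lower members were then 17 at 24 h and 20 at 96 h against 0 h, so the split came closer to even. With detection on both arrays, 31 members were higher at 24 h against 0 h, and 24 were higher and 36 lower at 96 h against 24 h. Without raised values, 158 were higher at 96 h against 0 h, and at 96 h against 24 h 76 were higher and 77 lower, so the excess of lower members was lost. With the flag for positive and significant signals, the 24 h array had 143 members above and 37 below 0 h, the 72 h array 142 and 18, and the 96 h array 163 above, and 78 were higher at 96 h against 24 h. With a limit of 1.5-fold, 133 were higher at 24 h and 14 lower at 72 h against 0 h, and 64 were higher and 113 lower at 96 h against 24 h. Of 108 medians by strand, 12 changed sign, all in comparisons between later times, and scaling to the 75th percentile moved the median of all probes at 96 h against 72 h from -0.04 to 0.09 and that of antisense members from -0.36 to 0.20. Of 214 calls of named members, 11 were under 2-fold with that scaling and 79 with normexp, and 0 turned. Pseudogenes lower than 0 h were 9 to 13 at 24 h, 1 to 2 at 72 h and 11 to 13 at 96 h. No paired analysis was possible because each time point has 1 array. The slide as a block was not run, since each time point lies on 1 slide. Dim members limit the counts, as 145 of 370 were detected on 1 array alone.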
